A study of Mus musculus with 12 samples.

Results

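The genes described here are the kelch-BTB proteins named Klhl or Kbtbd and the cullins named Cul with a number, which are the adaptors and the scaffolds of one family of ubiquitin ligases. Members were taken by name: every probe whose gene symbol in the platform's probe table starts with Klhl, Kbtbd or Cul followed by a digit, and whose detection p-value was under 0.05 on at least 1 array. The names gave 100 probes of 51 genes, and 76 of these probes, for 44 genes, were detected. The array holds 45281 probes and the platform table names 19057 genes. A further probe carried several gene names and was left out. The 24 undetected probes left 7 genes without any reading (Klhl1, Klhl4, Klhl13, Klhl14, Klhl20, Klhl29 and Klhl36).

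The arrays compared testis cells of mice heterozygous and homozygous for a mutation of Baz1a, which encodes the defining subunit of the chromatin remodelers ACF and CHRAC, at 2 steps of sperm formation. Controls were heterozygous Baz1a+/- mice (mice 1, 2 and 3) and mutants were Baz1a-/- mice (mice 4, 5 and 6), all adult, of mixed C57BL/6J and FVB/NJ background. The paper calls the controls littermates, but the labels do not say which mice shared a litter, so litter was not fitted. The mutant allele lacks 1 exon, removed in the germ line by a Stra8-Cre transgene, and descends from a single targeted ES cell clone. Spermatocytes and round spermatids were sorted by Hoechst fluorescence, and each mouse gave 1 array per cell type. The spermatocyte array of mouse 4, which the labels mark as censored, was normalized with the rest but kept out of the tests. The paper left it out because its purity was unknown and its expression pointed to substantial contamination with spermatids. This left 3 arrays in each group except the mutant spermatocytes, with 2. Values of a group are given below in the order of the mouse numbers: mice 1, 2 and 3 for controls, mice 5 and 6 for mutant spermatocytes, and mice 4, 5 and 6 for mutant spermatids.

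A cullin is a long scaffold that holds a RING protein, which recruits the ubiquitin-charged enzyme, at one end and a substrate receptor at the other. CUL3 takes its receptors from the BTB proteins: the BTB domain binds the cullin and, in the Klhl and Kbtbd proteins, the kelch repeats bind the substrate. The other cullins reach their substrates through F-box, SOCS-box or DCAF proteins, and all are switched on by attachment of the small modifier NEDD8. In the testis the family is best known for KLHL10, a haploid germ cell protein that binds CUL3 and is needed for male fertility in mice.

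Signal and detection were similar across the arrays, but their weights in the fit were not. The weights ran from 0.67, on both mutant spermatocyte arrays of the tests, to 1.74, on the control spermatocyte array of mouse 1. The paper reports that purity varied more among its sorted spermatocytes than among its spermatids. Median signals lay between 101 and 118 before normalization, 36.2 to 41.4% of probes were detected, and the median SD between arrays of a group was 0.20 to 0.23 log2. Spermatocyte markers averaged 9.80 to 9.94 on the spermatocyte arrays of the tests and 8.57 to 8.97 on the spermatid arrays, and the 14 round spermatid markers on the array averaged 11.24 to 11.54 on the spermatid arrays. The spermatid markers were also well above background in spermatocytes, and unevenly so: their mean was 8.56, 7.13 and 8.69 in mice 1, 2 and 3, 9.76 and 7.76 in mice 5 and 6, and 10.10 on the array of mouse 4 that was not used. Skeletal muscle markers stayed between 4.46 and 4.66 in every group, near the floor of detection. The targeted Baz1a transcript was not followed here.

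Of the 75 members tested, 35 differed between spermatids and spermatocytes of control mice, 13 higher and 22 lower in spermatids. A probe was called here and throughout at a fold of at least 2 (1 on the log2 scale) with a limma p-value under 0.05 after Benjamini-Hochberg adjustment over the 28751 probes tested, so every adjusted p below is limma's. The 35 probes were 46.7% of the members, against 28.4% of all probes called in this comparison. Among all probes 13.1% were higher and 15.3% lower in spermatids, and among the members 17.3% and 29.3%. They stood for 26 genes, 10 higher and 16 lower, and no gene had probes called in both directions. The median log2 difference was -0.20 over the members and -0.05 over all probes, and the median size of the difference was 0.75 and 0.42. In bulk RNA of sorted cells, fewer cells of a type and less RNA per cell cannot be told apart.

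The mutant cells, which share no array with this comparison, gave 36 calls among the members, 14 higher and 22 lower. These were 48.0% of the members against 31.5% of all probes (14.9% higher and 16.6% lower). Of the 75 probes, 13 were called higher in both genotypes, 20 lower in both, and none in opposite directions. A further 2 were called in controls alone and 3 in mutants alone, and 37 in neither. These joint classes were not counted over all probes, so they are not read as particular to the members. Whether the change differed between the genotypes was tested for every probe, and no member passed, against 0.153% of all probes. At an unadjusted p under 0.05 that test held 8 members, and its lowest adjusted p among them was 0.299. The share of all probes at this unadjusted threshold was not counted.

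**Figure D1:**
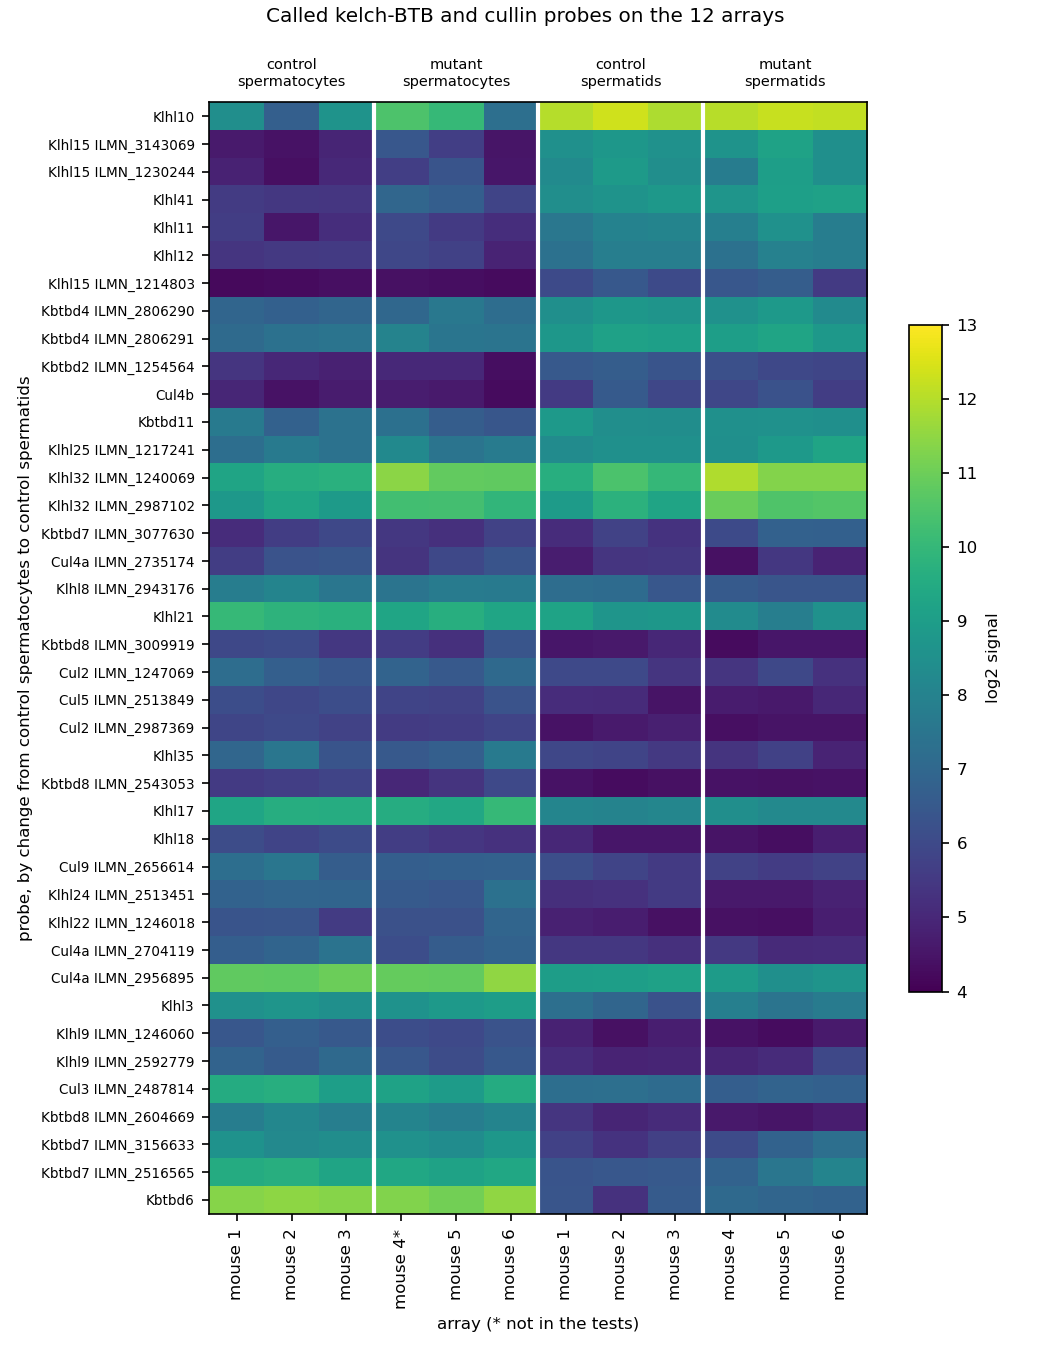
Log2 signal (colour) of the 40 member probes called in at least 1 comparison (rows, ordered by the log2 difference between control spermatids and control spermatocytes) on the 12 arrays (columns, by group and mouse). Colours are to be compared along a row, since levels of different probes are not on a common scale. Klhl10 at the top rose by 4.07 and Kbtbd6 at the bottom fell by 5.28, and the asterisk marks the array of mouse 4 that was not in the tests.

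**Figure D2:**
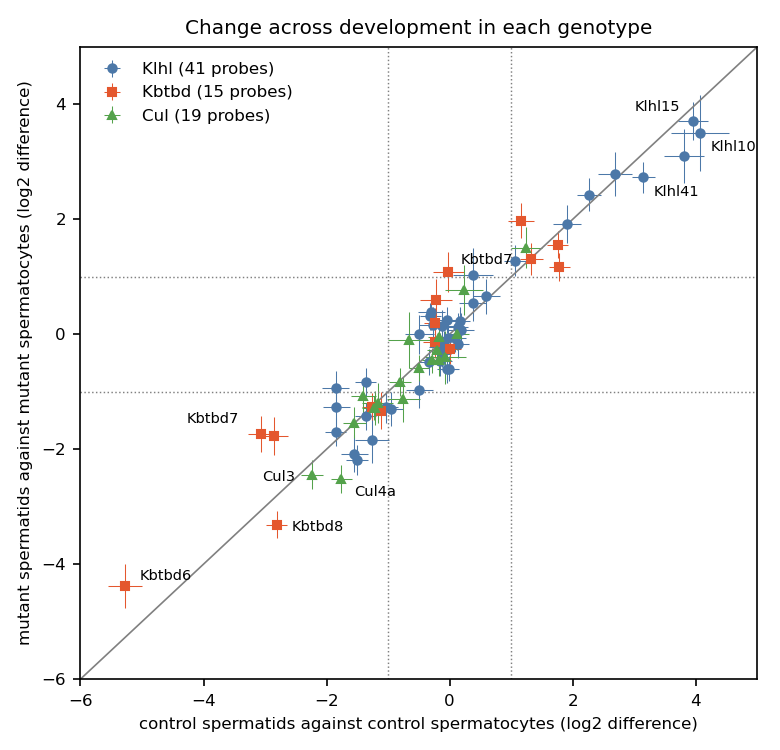
Log2 difference between spermatids and spermatocytes of the 75 tested member probes in control mice (horizontal axis) and in mutant mice (vertical axis), with bars of 1 SE, the line of equal change in grey and the fold of 2 dotted. No probe lies in the called range of opposite quadrants, and the labelled Kbtbd7 probe near 0 on the horizontal axis is the member called higher in mutants alone.

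Of the 19 cullin probes tested, for 8 genes, 7 probes of 5 genes were lower in control spermatids (Cul2, Cul3, Cul4a, Cul5 and Cul9), 1 was higher (Cul4b) and 11 were not called. The lower probes were 36.8% of the cullin probes, against 15.3% of all probes. In mutants 8 probes of the same 5 genes were lower (42.1%, against 16.6% of all probes) and the Cul4b probe was higher. The median log2 difference of the cullin probes was -0.66 in controls and -0.59 in mutants, or -0.50 and -0.40 with probes undetected in 1 of the groups set at the floor of detection. Without background correction the falls of Cul3 on ILMN_2487814 and of Cul4a on ILMN_2956895 stayed past the fold of 2 in both genotypes, and no other cullin call did. No cullin probe was called between the genotypes.

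Cul3, the scaffold that the kelch-BTB adaptors bind, was read by a pair of probes that did not move alike. ILMN_1224546 had a log2 signal of 12.37, 12.90 and 12.43 in control spermatocytes and 12.17, 12.42 and 12.37 in control spermatids, against 12.52 and 12.69 and 12.43, 12.43 and 12.11 in the mutant cells. The control groups overlapped, and the difference was -0.20 (SE 0.17, adjusted p = 0.413). On ILMN_2487814, control spermatocytes gave 9.52, 9.65 and 9.05 and control spermatids 7.24, 7.30 and 7.13, and the mutant arrays gave 8.95 and 9.52 and then 6.69, 6.88 and 6.75. Here every spermatid array lay below every spermatocyte array, and the signal fell by 2.24 in controls (SE 0.18, adjusted p = 2.38e-07) and fell by 2.44 in mutants (SE 0.25, adjusted p = 7.51e-06). The first probe was detected on all arrays and differed between the genotypes by -0.01 in spermatids, with a 95% confidence interval of -0.41 to 0.38.

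Cul4a and Cul4b are close paralogs that hold DDB1 and the DCAF receptors, and they moved in opposite directions. Control arrays read 10.81, 10.77 and 10.97 in spermatocytes and 9.0, 9.05 and 9.15 in spermatids on ILMN_2956895, and mutant arrays read 10.85 and 11.50 and 8.94, 8.49 and 8.65. It fell by 1.76 in controls (SE 0.17, adjusted p = 1.32e-06) and fell by 2.52 in mutants (SE 0.24, adjusted p = 4.92e-06), with no overlap between the cell types. With ILMN_2704119 the spermatocyte arrays stood at 6.69, 6.91 and 7.43 in controls and 6.61 and 6.84 in mutants, and the spermatid arrays at 5.45, 5.47 and 5.26 and 5.49, 5.06 and 5.12. The second probe fell by 1.55 (SE 0.19, adjusted p = 1.14e-05) and fell by 1.54 (SE 0.27, adjusted p = 0.000408). The third Cul4a probe gave weaker differences. Spermatocytes read 5.63, 6.32 and 6.41 (controls) and 5.94 and 6.33 (mutants) on ILMN_2735174, and spermatids 4.73, 5.39 and 5.45 (controls) and 4.41, 5.47 and 4.90 (mutants). It differed by -0.75 in controls (SE 0.27, adjusted p = 0.0387), or -1.11 without the spermatocyte array of mouse 1, and fell by 1.13 in mutants (SE 0.39, adjusted p = 0.0343), a call that was lost without the spermatid array of mouse 4 (-0.95, adjusted p = 0.0719) or mouse 6 (-1.20, adjusted p = 0.0537) or the spermatocyte array of mouse 6 (-0.93, adjusted p = 0.109). Cul4b, which is X-linked, was near background in spermatocytes and detected in all spermatids. ILMN_2656909 had a log2 signal of 4.98, 4.45 and 4.70 in control spermatocytes and 5.52, 6.56 and 5.90 in control spermatids, against 4.65 and 4.26 and 5.93, 6.26 and 5.62 in the mutant cells. It rose by 1.25 in controls (SE 0.25, adjusted p = 0.000820), and by 0.94 without the spermatid array of mouse 2, the highest of its group, which is below the fold of 2. In mutants it was undetected on both spermatocyte arrays, and the spermatids were at least 2.14-fold higher (adjusted p = 0.00357), a bound taken from the lowest signal detected on each array. Such bounds, here and below, compare group means and carry no sampling error. The adjusted p beside a bound is that of the limma difference without the floor, so a called probe can have a bound under the fold of 2.

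Cul2 and Cul5, which carry elongin-bound receptors, fell as well. Among 4 Cul2 probes 2 were called. On ILMN_2987369, control spermatocytes gave 5.87, 5.98 and 5.76 and control spermatids 4.43, 4.65 and 4.78, and the mutant arrays gave 5.65 and 5.83 and then 4.37, 4.49 and 4.47. No spermatid array detected this probe, so spermatocytes were at least 2.08-fold higher in controls (adjusted p = 1.06e-05) and at least 1.89-fold higher in mutants (adjusted p = 0.000254). Control arrays read 7.20, 6.73 and 6.45 in spermatocytes and 5.97, 5.97 and 5.39 in spermatids on ILMN_1247069, and mutant arrays read 6.5 and 7.09 and 5.40, 5.96 and 5.28. It fell by 1.17 in controls (SE 0.25, adjusted p = 0.00129) and fell by 1.20 in mutants (SE 0.35, adjusted p = 0.0141). The control call was lost without the spermatid array of mouse 3 (-0.93) or the spermatocyte array of mouse 1 (-0.87), and the mutant call without the spermatocyte array of mouse 6 (-0.91). Spermatocytes read 5.34, 5.57 and 5.0 (controls) and 4.98 and 5.41 (mutants) on ILMN_1238615, and spermatids 4.59, 4.71 and 4.35 (controls) and 4.32, 4.26 and 4.51 (mutants). With ILMN_1238236 the spermatocyte arrays stood at 5.15, 4.95 and 4.88 in controls and 5.11 and 5.05 in mutants, and the spermatid arrays at 4.86, 4.34 and 4.48 and 4.48, 4.59 and 4.38. Neither was called. ILMN_1238615 was undetected on every spermatid array, so spermatocytes were at least 1.41-fold higher in controls (adjusted p = 0.00186) and at least 1.30-fold higher in mutants (adjusted p = 0.0172), and ILMN_1238236, detected on 1 of 3 control spermatid arrays, differed by -0.50 (SE 0.16, adjusted p = 0.0220).

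Cul5 was called on 1 of its 2 probes. ILMN_2513849 had a log2 signal of 6.14, 5.91 and 6.13 in control spermatocytes and 5.16, 5.11 and 4.46 in control spermatids, against 5.79 and 6.30 and 4.70, 4.63 and 4.99 in the mutant cells. It fell by 1.22 in controls (SE 0.21, adjusted p = 0.000223) and fell by 1.28 in mutants (SE 0.30, adjusted p = 0.00313), and the control difference was -0.93 without the spermatid array of mouse 3, the lowest of its group. On ILMN_2560832, control spermatocytes gave 4.65, 4.50 and 5.38 and control spermatids 4.46, 4.72 and 4.57, and the mutant arrays gave 5.24 and 4.91 and then 4.79, 4.51 and 4.66. That probe overlapped between the control groups, was undetected on every spermatid array and was not called (adjusted p = 0.530).

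Cul9, a large cullin that binds p53, had 1 called probe of 4. Control arrays read 7.25, 7.53 and 6.64 in spermatocytes and 6.16, 5.84 and 5.53 in spermatids on ILMN_2656614, and mutant arrays read 6.77 and 6.78 and 5.78, 5.60 and 5.76. It fell by 1.40 in controls (SE 0.21, adjusted p = 6.76e-05) and fell by 1.07 in mutants (SE 0.30, adjusted p = 0.0100), without overlap between the cell types. The other Cul9 probes stayed near background. With ILMN_1233070 the spermatocyte arrays stood at 4.65, 4.95 and 4.59 in controls and 4.55 and 4.97 in mutants, and the spermatid arrays at 4.45, 4.54 and 4.35 and 4.24, 4.30 and 4.37. Spermatocytes read 4.66, 4.93 and 4.72 (controls) and 4.43 and 4.59 (mutants) on ILMN_1251962, and spermatids 4.56, 4.86 and 4.38 (controls) and 4.89, 4.38 and 4.26 (mutants). ILMN_1253912 had a log2 signal of 4.45, 4.52 and 4.37 in control spermatocytes and 4.29, 4.30 and 4.95 in control spermatids, against 4.39 and 4.43 and 4.61, 4.35 and 4.34 in the mutant cells. Their control differences were -0.29, -0.17 and 0.12, none called.

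Cul1, the scaffold of the SCF ligases, and Cul7, which pairs with the F-box protein FBXW8, were called in no comparison of the model without a mouse block. On ILMN_1226323, control spermatocytes gave 9.59, 9.69 and 7.89 and control spermatids 9.05, 9.27 and 9.18, and the mutant arrays gave 9.50 and 9.79 and then 8.74, 9.45 and 9.37. A single low control spermatocyte array, that of mouse 3, sets the spread of this probe, and its control difference was -0.07 (SE 0.33, adjusted p = 0.901). Control arrays read 6.22, 6.10 and 5.97 in spermatocytes and 5.80, 6.69 and 6.46 in spermatids on ILMN_1222157, and mutant arrays read 5.83 and 6.56 and 5.82, 7.31 and 7.40. The second Cul1 probe differed by 0.24 in controls (SE 0.31, adjusted p = 0.592) and 0.77 in mutants (SE 0.44, adjusted p = 0.211), and without the spermatid array of mouse 4, which read 5.82, it was called higher in mutant spermatids than in mutant spermatocytes (1.16, adjusted p = 0.0136). With mouse as a fixed block, a fit of the mutant arrays of mice 5 and 6 alone, this probe was also called (1.17, adjusted p = 0.00661). With ILMN_2666690 the spermatocyte arrays stood at 6.01, 4.58 and 4.57 in controls and 4.59 and 5.37 in mutants, and the spermatid arrays at 4.82, 4.74 and 4.40 and 4.43, 5.05 and 5.02. For Cul7 the highest reading was the control spermatocyte array of mouse 1, and the groups overlapped.

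**Figure D3:**
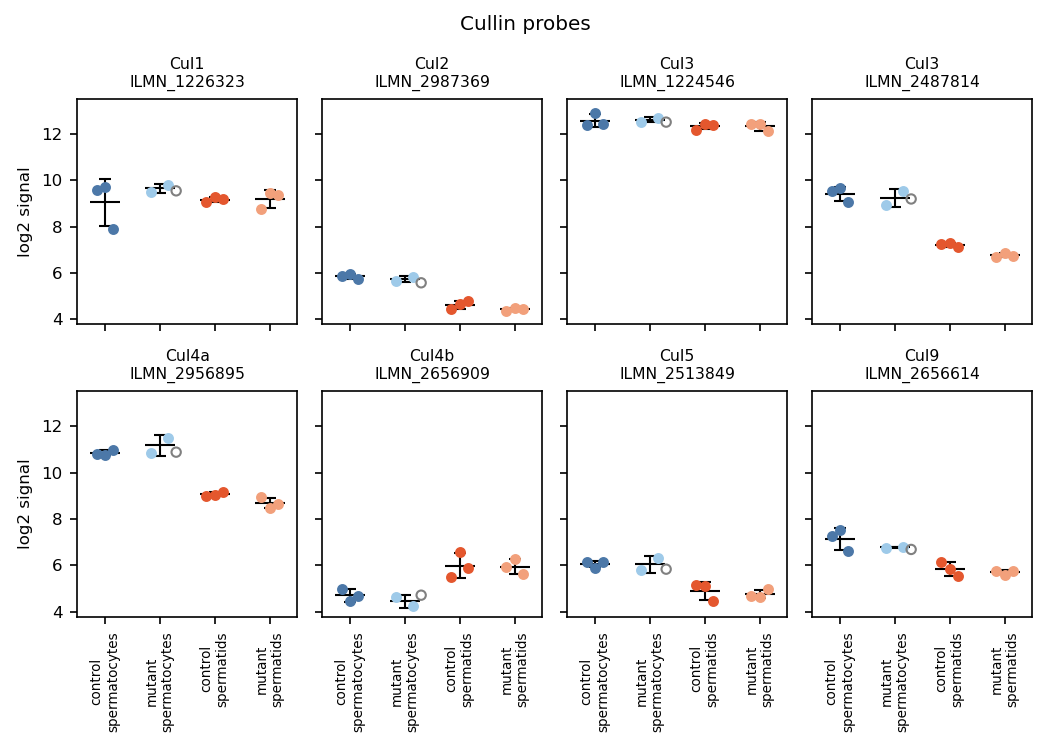
Log2 signal of 8 cullin probes by group, 1 point per array, with the group mean (bar) and 1 SD (whisker). Open circles are the unused spermatocyte array of mouse 4 and are in neither mean nor SD. The second Cul3 probe, Cul2, Cul4a, Cul5 and Cul9 stand lower in spermatids of both genotypes, Cul4b stands higher, and Cul1 and the first Cul3 probe overlap or nearly so.

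Among the kelch-BTB adaptors, 12 probes of 9 genes rose from control spermatocytes to control spermatids: Klhl10, Klhl11, Klhl12, Klhl15, Klhl25, Klhl41, Kbtbd2, Kbtbd4 and Kbtbd11. Of the 41 Klhl probes tested 8 were higher (19.5%) and 9 lower (22.0%), and of the 15 Kbtbd probes 4 were higher (26.7%) and 6 lower (40.0%), against 13.1% and 15.3% of all probes. Median log2 differences were -0.09 for the Klhl and -0.24 for the Kbtbd probes.

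Klhl10, the germ cell adaptor, had the largest rise of the members in controls. Spermatocytes read 8.44, 6.74 and 8.62 (controls) and 10.02 and 7.30 (mutants) on ILMN_2921031, and spermatids 12.01, 12.34 and 11.89 (controls) and 12.03, 12.25 and 12.18 (mutants). Every spermatid array exceeded every spermatocyte array. The rise was 4.07 in controls (SE 0.47, adjusted p = 6.32e-06) and 3.51 in mutants (SE 0.66, adjusted p = 0.000740). Within spermatocytes the arrays of mice 2 and 6 were low and those of mice 1, 3 and 5 high, and the unused array of mouse 4 read 10.48. The mean of the round spermatid markers was low on the same arrays (7.13 and 7.76, against 8.56, 8.69, 9.76 and 10.10), and its part in the Klhl10 signal of spermatocytes was not tested. Mutant and control spermatids differed by 0.10 (SE 0.49, adjusted p = 0.951), with a 95% confidence interval of -0.97 to 1.17.

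Klhl11, an adaptor known in humans as an autoantigen of patients with testicular tumours, is the protein-coding gene next to Klhl10 on chromosome 11 in RefSeq. ILMN_2631379 had a log2 signal of 5.65, 4.53 and 5.17 in control spermatocytes and 7.57, 7.98 and 8.05 in control spermatids, against 5.53 and 5.17 and 7.90, 8.55 and 7.82 in the mutant cells. It rose by 2.69 in controls (SE 0.27, adjusted p = 1.88e-06) and 2.79 in mutants (SE 0.38, adjusted p = 6.12e-05), with no overlap. The promoters of these neighbours (RefSeq, GRCm38.p6, 250 bases before to 50 after the start of the gene) are shown because both genes rose. Capitals mark matches on either strand to the cAMP response element TGACGTCA or its half-site TGACG, which CREM and related factors bind, or to the RFX half-site GTTGCC, and neither window holds one. The full element contains the half-site, so each full match also counts as a half-site.
Klhl10 (chr11:100441674-100441973, + strand): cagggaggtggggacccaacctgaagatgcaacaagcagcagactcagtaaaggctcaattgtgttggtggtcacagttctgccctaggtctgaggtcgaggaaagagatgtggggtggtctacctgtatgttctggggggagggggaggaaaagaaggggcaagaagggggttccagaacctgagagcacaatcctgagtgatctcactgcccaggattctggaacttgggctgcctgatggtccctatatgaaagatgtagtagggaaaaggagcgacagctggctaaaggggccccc
Klhl11 (chr11:100472733-100473032, - strand): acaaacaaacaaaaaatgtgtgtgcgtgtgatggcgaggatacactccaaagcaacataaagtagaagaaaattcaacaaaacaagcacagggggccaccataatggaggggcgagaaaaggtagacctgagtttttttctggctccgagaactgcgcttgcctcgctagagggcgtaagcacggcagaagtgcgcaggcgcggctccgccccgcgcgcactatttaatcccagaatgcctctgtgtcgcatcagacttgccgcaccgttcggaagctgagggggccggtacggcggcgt

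Klhl12, which in human cells acts with CUL3 on a coat protein of vesicles leaving the endoplasmic reticulum, rose on its single probe. On ILMN_2752702, control spermatocytes gave 5.39, 5.48 and 5.53 and control spermatids 7.34, 7.86 and 7.84, and the mutant arrays gave 5.74 and 4.90 and then 7.36, 7.95 and 7.81. The rise was 2.27 in controls (SE 0.20, adjusted p = 7.18e-07) and 2.43 in mutants (SE 0.29, adjusted p = 2.21e-05), and the cell types did not overlap. Its promoter is shown as the only member promoter with the full cAMP response element.
Klhl12 (chr1:134455281-134455580, + strand): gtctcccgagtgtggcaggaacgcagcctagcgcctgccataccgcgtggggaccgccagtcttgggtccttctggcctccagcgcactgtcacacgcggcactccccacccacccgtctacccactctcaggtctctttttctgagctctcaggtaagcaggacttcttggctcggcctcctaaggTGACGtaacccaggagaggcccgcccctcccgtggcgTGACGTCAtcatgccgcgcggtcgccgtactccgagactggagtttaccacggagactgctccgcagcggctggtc

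The full element was in 1 of the 36 member genes with a promoter in the table (2.78%), against 2.03% of the 27025 promoters of all genes. The half-site was in 13 of the 36 (36.1%), against 23% of all promoters, among them 2 of 9 genes that rose in control spermatids, 7 of 13 that fell and 4 that were not called. The RFX half-site was in 4 of 36 (11.1%, against 14.1% of all), none of them a gene that rose. A match in these windows describes the letters alone.

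Klhl15, an X-linked adaptor that in human cells targets a regulatory subunit of the phosphatase PP2A, rose on all 3 of its probes. Control arrays read 4.66, 4.43 and 4.93 in spermatocytes and 8.53, 8.76 and 8.54 in spermatids on ILMN_3143069, and mutant arrays read 5.67 and 4.51 and 8.61, 9.19 and 8.47. With ILMN_1230244 the spermatocyte arrays stood at 4.86, 4.37 and 5.03 in controls and 6.33 and 4.53 in mutants, and the spermatid arrays at 8.32, 8.91 and 8.44 and 7.78, 9.04 and 8.49. The rises in controls were 3.96 (SE 0.24, adjusted p = 3.84e-08) and 3.81 (SE 0.33, adjusted p = 5.52e-07), and in mutants 3.71 (SE 0.33, adjusted p = 3.38e-06) and 3.10 (SE 0.47, adjusted p = 0.000135). Spermatocytes read 4.23, 4.25 and 4.36 (controls) and 4.32 and 4.27 (mutants) on ILMN_1214803, and spermatids 6.03, 6.47 and 6.03 (controls) and 6.43, 6.65 and 5.52 (mutants). The third probe was undetected on every spermatocyte array, and spermatids were at least 2.58-fold higher in controls (adjusted p = 1.13e-05) and at least 2.57-fold higher in mutants (adjusted p = 0.000374). Control spermatocytes were near the floor on all 3 probes, and mouse 5 was the highest of the spermatocyte arrays tested on the first 2. With the array of mouse 4 in the fit, ILMN_3143069 was called higher in mutant than in control spermatocytes (1.17, adjusted p = 0.0431). The mean of the round spermatid markers was 10.10 on that array and 9.76 on that of mouse 5, against 7.13 to 8.69 in control spermatocytes, and its part in this difference was not tested.

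Klhl41, known from skeletal muscle, where its human counterpart is mutated in nemaline myopathy, rose in germ cells here. ILMN_2527465 had a log2 signal of 5.56, 5.47 and 5.41 in control spermatocytes and 8.44, 8.62 and 8.81 in control spermatids, against 6.69 and 5.85 and 8.70, 9.07 and 9.14 in the mutant cells. The rise was 3.15 in controls (SE 0.19, adjusted p = 3.86e-08) and 2.73 in mutants (SE 0.27, adjusted p = 5.56e-06). The mean of the skeletal muscle markers, near the floor of detection, was 4.63 to 4.66 in control spermatocytes and 4.46 to 4.53 in control spermatids. Its relation to the Klhl41 signal was not tested. The mutant spermatocytes of mice 5 and 6 lay above all control spermatocytes, by 0.77 (SE 0.26, adjusted p = 0.501), which was not called. With the array of mouse 4, at 6.97, that difference was 1.20 (adjusted p = 0.00517), and without mouse 6 it was 1.19 (adjusted p = 0.0297). The spermatid markers were highest on the arrays of mice 4 and 5, and their part in this difference was not tested.

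The rises of the remaining adaptors were smaller. Kbtbd4, whose human counterpart is altered in some medulloblastomas, rose on both probes. On ILMN_2806290, control spermatocytes gave 6.92, 6.77 and 6.92 and control spermatids 8.49, 8.77 and 8.67, and the mutant arrays gave 7.61 and 7.21 and then 8.55, 8.82 and 8.32. Control arrays read 7.12, 7.35 and 7.47 in spermatocytes and 8.78, 9.16 and 9.07 in spermatids on ILMN_2806291, and mutant arrays read 7.51 and 7.48 and 9.06, 9.27 and 8.80. The rises were 1.78 (SE 0.17, adjusted p = 1.01e-06) and 1.76 (SE 0.17, adjusted p = 1.39e-06) in controls, and 1.17 (SE 0.24, adjusted p = 0.00124) and 1.56 (SE 0.24, adjusted p = 0.000162) in mutants. No spermatid array overlapped a spermatocyte array on either probe. Without the spermatocyte array of mouse 6 the first mutant rise was 0.97, under the fold of 2.

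Kbtbd2, which in mice limits the regulatory subunit of PI3 kinase in insulin signalling, rose on 1 of 3 probes. With ILMN_1254564 the spermatocyte arrays stood at 5.38, 5.0 and 4.83 in controls and 5.03 and 4.32 in mutants, and the spermatid arrays at 6.5, 6.66 and 6.34 and 6.20, 5.94 and 5.88. It rose by 1.33 in controls (SE 0.19, adjusted p = 5.75e-05) and 1.31 in mutants (SE 0.28, adjusted p = 0.00168), or 0.95 in mutants without the spermatocyte array of mouse 6. Spermatocytes read 6.74, 6.34 and 6.38 (controls) and 5.57 and 5.14 (mutants) on ILMN_2654442, and spermatids 6.41, 6.44 and 6.18 (controls) and 6.73, 5.28 and 6.17 (mutants). ILMN_2824593 had a log2 signal of 7.16, 6.87 and 7.53 in control spermatocytes and 7.28, 6.72 and 6.86 in control spermatids, against 6.69 and 6.56 and 6.51, 6.29 and 6.69 in the mutant cells. On these other probes the control groups overlapped, and the differences were -0.22 and -0.24. Mutant spermatocytes lay below control spermatocytes on ILMN_2654442, with a difference of -1.19 (SE 0.37, adjusted p = 0.387) that did not pass the test, and without the spermatid array of mouse 5, at 5.28, the probe was called higher in mutant spermatids than in mutant spermatocytes (1.10, adjusted p = 0.0126).

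Kbtbd11 rose by 1.16 in controls (SE 0.21, adjusted p = 0.000382) and 1.98 in mutants (SE 0.30, adjusted p = 0.000132). On ILMN_1249105, control spermatocytes gave 7.70, 6.81 and 7.40 and control spermatids 8.85, 8.46 and 8.42, and the mutant arrays gave 6.66 and 6.41 and then 8.50, 8.55 and 8.47. All spermatid arrays lay above all spermatocyte arrays, and the control rise was 0.99 without the spermatocyte array of mouse 2. Klhl25, a CUL3 adaptor for a repressor of translation initiation in human cells, had probes that disagreed. Control arrays read 7.24, 7.66 and 7.39 in spermatocytes and 8.35, 8.51 and 8.50 in spermatids on ILMN_1217241, and mutant arrays read 7.48 and 7.74 and 8.48, 8.84 and 9.26. This probe rose by 1.07 in controls (SE 0.19, adjusted p = 0.000283) and 1.28 in mutants (SE 0.27, adjusted p = 0.00147), with a control rise of 0.94 without the spermatocyte array of mouse 1 and 0.72 under median scaling. With ILMN_2455390 the spermatocyte arrays stood at 9.28, 9.17 and 9.35 in controls and 9.15 and 8.88 in mutants, and the spermatid arrays at 8.97, 8.72 and 9.04 and 8.61, 8.31 and 8.76. The other probe differed by -0.34 in controls (SE 0.16, adjusted p = 0.110) and was not called.

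**Figure D4:**
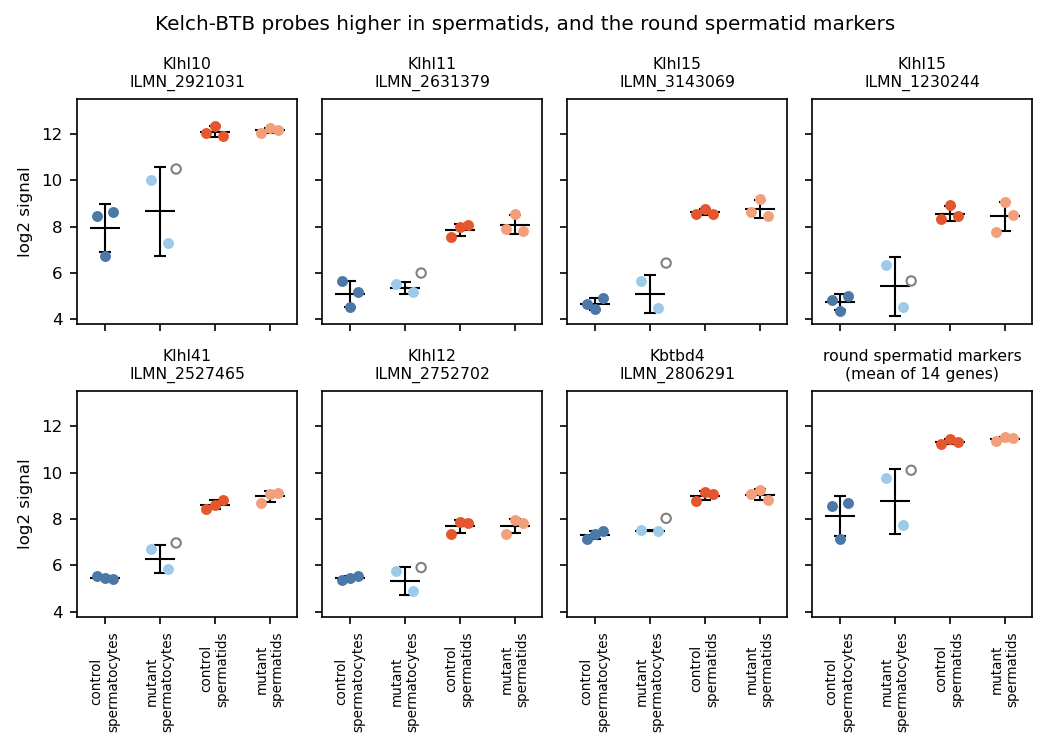
Log2 signal by group of 7 kelch-BTB probes called higher in spermatids and, in the last panel, the mean of the 14 round spermatid markers. Points are arrays, bars and whiskers the group mean and 1 SD, and open circles the unused spermatocyte array of mouse 4. In spermatocytes the Klhl10 points spread from 6.74 to 10.02 on the arrays of the tests, and the marker mean from 7.13 to 9.76.

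The falls in control spermatids took in 15 adaptor probes of 11 genes: Kbtbd6, Kbtbd7, Kbtbd8, Klhl3, Klhl9, Klhl17, Klhl18, Klhl21, Klhl22, Klhl24 and Klhl35. Kbtbd6 and Kbtbd7 are neighbouring protein-coding genes on chromosome 14, and in human cells their products act together with CUL3 on the RAC activator TIAM1. Spermatocytes read 11.37, 11.48 and 11.35 (controls) and 11.09 and 11.52 (mutants) on ILMN_3161906, and spermatids 6.39, 5.28 and 6.60 (controls) and 7.06, 6.92 and 6.84 (mutants). Kbtbd6 had the largest change of all members and fell by 5.28 in controls (SE 0.28, adjusted p = 2.11e-08) and fell by 4.38 in mutants (SE 0.39, adjusted p = 3.37e-06). Spermatocyte arrays were within 11.09 to 11.52 and the spermatid arrays no higher than 7.06.

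Kbtbd7 fell on 2 of its 3 probes. ILMN_2516565 had a log2 signal of 9.53, 9.65 and 9.24 in control spermatocytes and 6.33, 6.44 and 6.52 in control spermatids, against 9.19 and 9.36 and 6.84, 7.54 and 8.07 in the mutant cells. On ILMN_3156633, control spermatocytes gave 8.60, 8.22 and 8.41 and control spermatids 5.74, 5.32 and 5.70, and the mutant arrays gave 8.36 and 8.76 and then 6.07, 6.83 and 7.27. The differences between the stages were -3.06 (SE 0.22, adjusted p = 1.22e-07) and -2.86 (SE 0.23, adjusted p = 3.03e-07) in controls, and -1.73 (SE 0.31, adjusted p = 0.000504) and -1.77 (SE 0.33, adjusted p = 0.000654) in mutants. Control arrays read 5.13, 5.62 and 5.95 in spermatocytes and 5.16, 5.78 and 5.32 in spermatids on ILMN_3077630, and mutant arrays read 5.25 and 5.79 and 6.03, 6.81 and 6.77. On the third probe the control groups overlapped (-0.02, SE 0.25, adjusted p = 0.959), and the mutant spermatids were higher than the mutant spermatocytes by 1.08 (SE 0.35, adjusted p = 0.0257). That rise was not called without the spermatid array of mouse 5 (0.88, adjusted p = 0.114) or mouse 6 (0.90, adjusted p = 0.104), or without the spermatocyte array of mouse 5 (0.81, adjusted p = 0.103).

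Kbtbd8, which in human stem cells and frog embryos acts with CUL3 in forming the neural crest, fell on all 3 probes. With ILMN_2604669 the spermatocyte arrays stood at 7.82, 8.17 and 7.84 in controls and 7.80 and 8.05 in mutants, and the spermatid arrays at 5.38, 4.92 and 5.10 and 4.62, 4.51 and 4.73. It fell by 2.81 in controls (SE 0.17, adjusted p = 3.88e-08) and fell by 3.31 in mutants (SE 0.24, adjusted p = 1.11e-06). Spermatocytes read 5.53, 5.67 and 5.83 (controls) and 5.36 and 6.00 (mutants) on ILMN_2543053, and spermatids 4.45, 4.29 and 4.40 (controls) and 4.43, 4.41 and 4.43 (mutants). The second probe was undetected in every spermatid sample, so spermatocytes were at least 1.82-fold higher in controls (adjusted p = 1.75e-05) and at least 1.82-fold higher in mutants (adjusted p = 0.000557). ILMN_3009919 had a log2 signal of 5.96, 6.04 and 5.46 in control spermatocytes and 4.54, 4.63 and 4.99 in control spermatids, against 5.25 and 6.36 and 4.27, 4.55 and 4.55 in the mutant cells. The third probe fell by 1.11 in controls (SE 0.22, adjusted p = 0.000869), with -0.99 without the spermatocyte array of mouse 1 and -0.95 without that of mouse 2, under the fold of 2. In mutants it was detected in spermatocytes only, at least 1.98-fold higher there (adjusted p = 0.00397). The mutant differences of the second and the third probe were -0.94 and -0.77 without the spermatocyte array of mouse 6.

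A further 4 of the adaptors that fell have known roles in mitosis. In human cells Klhl9 and Klhl21 act with CUL3 on Aurora B, Klhl18 on Aurora A and Klhl22 on PLK1. On ILMN_1246060, control spermatocytes gave 6.43, 6.72 and 6.52 and control spermatids 4.87, 4.41 and 4.77, and the mutant arrays gave 6.00 and 6.31 and then 4.44, 4.31 and 4.65. Control arrays read 6.86, 6.59 and 7.06 in spermatocytes and 5.14, 4.91 and 4.93 in spermatids on ILMN_2592779, and mutant arrays read 6.10 and 6.49 and 4.94, 5.12 and 5.94. Both Klhl9 probes fell by 1.85 in controls (SE 0.17, adjusted p = 9.0e-07 and SE 0.22, adjusted p = 7.76e-06). In mutants the first was undetected in spermatids and at least 2.53-fold higher in spermatocytes (adjusted p = 8.48e-05), and the second differed by -0.94 (SE 0.31, adjusted p = 0.0261), under the fold of 2. Without the spermatid array of mouse 6, at 5.94 the highest of its group, that difference was -1.27 (adjusted p = 0.00220), and without the spermatocyte array of mouse 5 it was -1.14 (adjusted p = 0.0132). With ILMN_1229082 the spermatocyte arrays stood at 10.02, 9.82 and 9.73 in controls and 9.65 and 9.30 in mutants, and the spermatid arrays at 9.23, 8.71 and 8.75 and 8.34, 7.86 and 8.55. Klhl21 fell by 1.04 (SE 0.20, adjusted p = 0.000621) and fell by 1.26 (SE 0.28, adjusted p = 0.00274), with a control difference of -0.91, -0.93 and -0.92 without the spermatid array of mouse 2, that of mouse 3 and the spermatocyte array of mouse 1. Spermatocytes read 6.10, 5.86 and 6.06 (controls) and 5.41 and 5.27 (mutants) on ILMN_1235016, and spermatids 5.0, 4.54 and 4.55 (controls) and 4.48, 4.35 and 4.74 (mutants). Klhl18 fell by 1.36 in controls (SE 0.17, adjusted p = 1.37e-05) and differed by -0.83 in mutants (SE 0.24, adjusted p = 0.0140), and its mutant spermatocytes lay below all control spermatocytes (-0.68, SE 0.23, adjusted p = 0.523), which was not called. ILMN_1246018 had a log2 signal of 6.33, 6.38 and 5.56 in control spermatocytes and 4.83, 4.72 and 4.41 in control spermatids, against 6.22 and 6.95 and 4.40, 4.36 and 4.74 in the mutant cells. On this probe Klhl22 fell by 1.55 (SE 0.22, adjusted p = 4.85e-05) and fell by 2.08 (SE 0.32, adjusted p = 0.000130). Its other probe, ILMN_1234514, stayed between 4.34 and 5.19 on the arrays of the tests and was not called.

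The last of the falling adaptors have roles described mainly outside the germ line. Klhl3 takes the WNK kinases to CUL3 in the kidney. On ILMN_2517611, control spermatocytes gave 8.55, 8.71 and 8.48 and control spermatids 7.28, 6.93 and 6.27, and the mutant arrays gave 8.88 and 9.0 and then 7.87, 7.47 and 7.76. It fell by 1.84 in controls (SE 0.22, adjusted p = 1.13e-05) and fell by 1.27 in mutants (SE 0.32, adjusted p = 0.00563). Klhl17, an actin-binding protein of rat neurons, fell by 1.36 (SE 0.17, adjusted p = 1.15e-05) and fell by 1.43 (SE 0.24, adjusted p = 0.000266). Control arrays read 9.29, 9.62 and 9.56 in spermatocytes and 8.10, 8.01 and 8.12 in spermatids on ILMN_2924601, and mutant arrays read 9.41 and 10.03 and 8.44, 8.24 and 8.25. Neither gene had a spermatid array as high as a spermatocyte array. Klhl24, whose human counterpart controls keratin in skin, was called on 1 of 3 probes and fell by 1.5 (SE 0.18, adjusted p = 1.08e-05) and fell by 2.19 (SE 0.26, adjusted p = 2.02e-05). With ILMN_2513451 the spermatocyte arrays stood at 6.82, 6.92 and 6.89 in controls and 6.45 and 7.34 in mutants, and the spermatid arrays at 5.21, 5.29 and 5.52 and 4.61, 4.62 and 4.87. The other Klhl24 probes ranged from 4.27 to 5.04 and were not called. Klhl35 fell by 1.26 (SE 0.28, adjusted p = 0.00189) and fell by 1.84 (SE 0.40, adjusted p = 0.00199), with a control difference of -0.92 without the spermatocyte array of mouse 2, the highest of its group. Spermatocytes read 6.96, 7.55 and 6.34 (controls) and 6.71 and 7.67 (mutants) on ILMN_2594076, and spermatids 5.91, 5.86 and 5.51 (controls) and 5.36, 5.74 and 4.89 (mutants). Klhl8 was called in mutants alone, where it fell by 1.30 (SE 0.30, adjusted p = 0.00319), and its control difference of -0.96 (SE 0.21, adjusted p = 0.00183) just missed the fold of 2. ILMN_2943176 had a log2 signal of 7.80, 8.06 and 7.54 in control spermatocytes and 7.20, 7.15 and 6.43 in control spermatids, against 7.76 and 7.68 and 6.55, 6.38 and 6.36 in the mutant cells. Without the spermatid array of mouse 1 or 2 or the spermatocyte array of mouse 3, the control difference was -1.03, -1.0 and -1.07 and was called.

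The remaining 16 genes were called in no comparison of this model. Klhl7, a CUL3 adaptor mutated in a human form of retinitis pigmentosa, was not called between the control stages (0.38, SE 0.32, adjusted p = 0.390). On ILMN_2660864, control spermatocytes gave 8.76, 8.90 and 9.51 and control spermatids 9.24, 9.22 and 9.51, and the mutant arrays gave 9.15 and 6.93 and then 9.09, 8.93 and 9.24. All readings but 1 lay between 8.76 and 9.51, and the exception was the mutant spermatocyte array of mouse 6. With that array alone for the mutant spermatocytes, which are then assumed to vary like the other groups, the gene was called lower than in controls (-2.03, adjusted p = 0.00858), and with the arrays of both mice it was not (-0.93, SE 0.44, adjusted p = 0.946). The same array alone made the probe higher in mutant spermatids than in mutant spermatocytes (2.15, adjusted p = 5.72e-05), which was not called with both (1.04, adjusted p = 0.0948). Klhl5 was undetected on every spermatid array on ILMN_2437558. Its spermatocyte mean was 1.35-fold above the floor in controls, where the difference of -0.49 did not pass the test (adjusted p = 0.0901). In mutants the mean was 1.58-fold above the floor, and the difference of -0.97 (adjusted p = 0.0254) was under the fold of 2. Klhl5 passed the threshold between the mutant stages without the spermatid array of mouse 5 (-1.03, adjusted p = 0.0456), and differed by -1.23 without the spermatocyte array of mouse 5. Beside Klhl7, Cul1 and Cul7 these genes were Kbtbd13, Klhl2, Klhl5, Klhl6, Klhl23, Klhl26, Klhl28, Klhl30, Klhl31, Klhl34, Klhl38, Klhl40 and Klhl42. With Cul7, and without Cul1 and Klhl7, they had 18 tested probes, all between 4.22 and 6.01 and none detected on more than 7 arrays. Kbtbd8 ILMN_2543053, at 4.29 to 6.00 on the arrays of the tests, was called between the stages at a like signal. The part of low signal in the missing calls was not tested. Klhl31 and Klhl40 are known from striated muscle. Over all tested members, 31 probes were detected on all 11 arrays of the tests, 23 on 4 to 10 and 21 on 1 to 3. One more Klhl42 probe was detected on the unused array alone and was not tested.

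Between the genotypes, 5 of the 75 members were called in spermatids, all higher in mutants and all from Kbtbd7 and Klhl32. They were 6.67% of the members, against 4.09% of all probes, of which 2.91% were higher and 1.18% lower in mutants. At an unadjusted p under 0.05 the comparison held 15 members, and the share of all probes at that threshold was not counted. The median log2 difference was -0.03 over the members and -0.03 over all probes, and its median size 0.19 and 0.21.

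Klhl32, a kelch-BTB protein, was higher in mutants on both of its probes and in both cell types, with the call made in spermatids. Control arrays read 9.25, 9.61 and 9.70 in spermatocytes and 9.64, 10.44 and 9.99 in spermatids on ILMN_1240069, and mutant arrays read 10.85 and 10.80 and 11.92, 11.33 and 11.32. With ILMN_2987102 the spermatocyte arrays stood at 8.80, 9.28 and 8.90 in controls and 10.31 and 9.92 in mutants, and the spermatid arrays at 8.94, 9.77 and 9.24 and 10.96, 10.51 and 10.58. No mutant array overlapped a control array of the same cell type on either probe. In spermatids the differences were 1.43 (SE 0.23, adjusted p = 0.00181) and 1.31 (SE 0.23, adjusted p = 0.00323). In spermatocytes they were 1.37 (SE 0.30, adjusted p = 0.0830) and 1.15 (SE 0.30, adjusted p = 0.195), above the fold of 2 but with an adjusted p over 0.05. The unused array of mouse 4, at 11.42 and 10.26, also lay above all control spermatocytes. With it in the fit both spermatocyte differences were called (1.61, adjusted p = 0.00212, and 1.28, adjusted p = 0.00461). Without the array of mouse 6, which leaves that of mouse 5 alone, they were 1.41 and 1.36. The mean of the round spermatid markers was 10.10 on the array of mouse 4 and 9.76 on that of mouse 5. It was 7.76 on that of mouse 6 and 7.13 to 8.69 in control spermatocytes. The part of spermatid RNA in these differences was not tested. The effect of genotype did not pass the test of a difference between cell types (0.06, SE 0.37, adjusted p = 0.986, and 0.16, SE 0.37, adjusted p = 0.964). Across the stages Klhl32 was not called in either genotype, at 0.60 and 0.38 in controls. Its promoter is shown for the call, and holds none of the motifs searched.
Klhl32 (chr4:24851075-24851374, - strand): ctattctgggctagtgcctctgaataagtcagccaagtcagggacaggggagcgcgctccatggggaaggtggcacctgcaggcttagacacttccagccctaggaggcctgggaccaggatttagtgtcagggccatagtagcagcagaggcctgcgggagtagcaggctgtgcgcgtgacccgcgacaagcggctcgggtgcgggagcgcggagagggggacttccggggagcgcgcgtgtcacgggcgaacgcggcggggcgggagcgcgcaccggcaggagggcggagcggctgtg

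Kbtbd7 was higher in mutant than in control spermatids on all 3 probes, whose values are given above. The differences were 1.10 (SE 0.23, adjusted p = 0.0109), 1.21 (SE 0.25, adjusted p = 0.00869) and 1.17 (SE 0.26, adjusted p = 0.0152). On each probe the lowest mutant array, mouse 4 throughout, was above the highest control array. In spermatocytes the differences were -0.23, 0.12 and 0.07, with overlapping groups. The test of a difference between cell types gave 1.32 (adjusted p = 0.299), 1.09 (adjusted p = 0.527) and 1.10 (adjusted p = 0.574), so a different effect in the cell types was not shown. The calls rested on single arrays. Without the spermatid array of mouse 5 the differences were 1.01, 1.09 and 0.97 (adjusted p = 0.0755, 0.0681 and 0.127), without that of mouse 6 they were 0.74, 0.87 and 0.99 (adjusted p = 0.118, 0.101 and 0.134), and without the control array of mouse 3 the third was 1.13 (adjusted p = 0.0712). The promoter of Kbtbd7 is shown as that of a gene called in both the stage and the genotype comparison, and it holds the half-site and the RFX half-site once each, in capitals and on the opposite strand.
Kbtbd7 (chr14:79426261-79426560, + strand): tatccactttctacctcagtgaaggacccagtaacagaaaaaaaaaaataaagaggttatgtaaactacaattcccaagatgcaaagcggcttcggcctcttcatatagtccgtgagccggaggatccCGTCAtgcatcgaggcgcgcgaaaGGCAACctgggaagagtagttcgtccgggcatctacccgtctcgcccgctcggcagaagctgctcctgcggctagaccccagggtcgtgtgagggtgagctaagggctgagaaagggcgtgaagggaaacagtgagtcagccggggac

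The list means of several somatic cell types were higher in mutant than in control spermatid arrays. The mean of the peritubular myoid and fibroblast markers was 5.90 to 5.95 in mutant and 5.08 to 5.28 in control spermatids, that of endothelial markers 5.69 to 6.08 and 5.07 to 5.27, and that of macrophage markers 5.67 to 5.91 and 5.10 to 5.21. Leydig markers reached 5.64 to 6.43 against 5.03 to 5.63, and Sertoli markers overlapped (5.38 to 5.77 against 5.18 to 5.69). Genes called higher in mutant spermatids were 2 of 9 tested for myoid and fibroblast and 2 of 7 for endothelial cells. The macrophage, Leydig and Sertoli lists had 1 of 6, 2 of 3 and 1 of 4. Of all probes 2.91% were called higher, and no gene of these lists was called lower. A list mean may rest on few genes. In spermatocytes the myoid and endothelial means were also higher in mutants (5.11 to 5.15 against 4.81 to 4.94, and 5.19 to 5.23 against 4.77 to 4.86). Their part in the Kbtbd7 and Klhl32 differences was not tested.

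Kbtbd6, next to Kbtbd7, was also higher on every mutant spermatid array than on any control one, by 0.81 (SE 0.29, adjusted p = 0.129), without being called. Klhl3 differed by 0.93 in spermatids (SE 0.24, adjusted p = 0.0307), with no overlap between the genotypes but under the fold of 2, and was called without the spermatid array of mouse 1 (1.07, adjusted p = 0.0138). In the other direction the largest differences were those of ILMN_2513451 for Klhl24 (-0.66, SE 0.19, adjusted p = 0.0555) and of Klhl21 (-0.64, SE 0.21, adjusted p = 0.0928), neither called.

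In spermatocytes no member was called between the genotypes by limma, against 0.410% of all probes. An unadjusted p under 0.05 was held by 7 members, and the share of all probes there was not counted. The median difference was 0.00 over the members and -0.01 over all probes. There were 2 mutant arrays, and differences ran from -1.19 (Kbtbd2 ILMN_2654442) to 1.37 (Klhl32 ILMN_1240069).

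**Figure D5:**
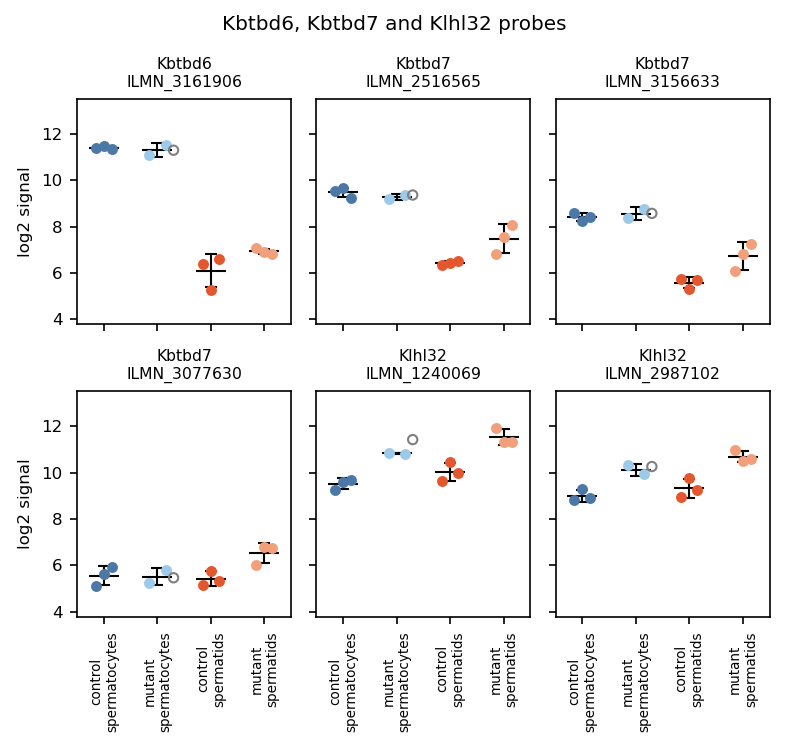
Log2 signal by group of the Kbtbd6 probe, the 3 Kbtbd7 probes and both Klhl32 probes. Points are arrays, bars and whiskers the group mean and 1 SD, and open circles the unused spermatocyte array of mouse 4. The mutant Klhl32 arrays lie above the control arrays in both cell types, a difference called in the main fit in spermatids alone. The Kbtbd7 probes stand apart between genotypes in spermatids, with the mutant arrays of ILMN_2516565 spread from 6.84 to 8.07. For neither gene was a different effect in the cell types shown.

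The partners of the scaffolds were read from lists of genes outside the naming rule, with 1 probe per gene, the one of highest mean signal. Of 15 genes of the shared ligase core and of NEDD8 attachment, 5 fell and none rose in control spermatids, with a median of -0.83, or -0.79 with genes undetected in 1 of the groups at the floor of detection. Rbx1, the RING protein of most cullins, fell by 2.14 (SE 0.16, adjusted p = 1.58e-07). Of the subunits of the enzyme that activates NEDD8, Nae1 fell by 2.97 (SE 0.18, adjusted p = 3.95e-08) and Uba3, undetected on every control spermatid array, was at least 6.42-fold higher in control spermatocytes (adjusted p = 2.48e-07). Eloc, the elongin that links CUL2 and CUL5 to their receptors, fell by 1.81. Dcun1d2, a helper of NEDD8 attachment and also undetected in control spermatids, was at least 1.73-fold higher in control spermatocytes (adjusted p = 0.000229). In mutants 6 of the 15 fell, again with none higher, and the median was -0.78. Nedd8 itself differed by -0.83 in controls, under the fold of 2, and fell by 1.27 in mutants. Ddb1, the CUL4 linker, differed by -0.85 in controls and fell by 1.35 in mutants.

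Of 10 genes of the COP9 signalosome list, which remove NEDD8 from cullins or process it, 3 fell in control spermatids and none rose, with a median of -0.62. They were Cops8 (-2.34), Gps1 (-1.32) and the NEDD8 protease Senp8, which was undetected in control spermatids and at least 1.92-fold higher in control spermatocytes (adjusted p = 0.000123). In mutants 4 fell and the median was -0.89, or -0.77 with Senp8 at the floor. Among 25 BTB and kelch adaptors outside the rule, 3 rose and 6 fell in controls, with a median of -0.38. The risers were the CUL3 adaptor Rhobtb2 (3.52), Kctd20 (2.44) and Btbd9 (1.63), and the falls included Kctd2 (-2.85) and the nuclear CUL3 adaptor Spop (-1.33). Of 29 genes listed as substrate receptors of the other cullins, 4 rose and 11 fell, with a median of 0.03. The list also holds Cdc20, which serves the APC/C ligase rather than these cullins and was not called. The rises of the SOCS-box protein Asb9 (4.04) and the F-box protein Fbxo24 (3.76) and the fall of the F-box protein Fbxo3 (-4.53) were the largest. Between the genotypes 2 genes of these 4 lists were called, both in the list of 29 genes, against 4.09% of all probes in spermatids (2.91% higher). Both were higher in mutant spermatids: Asb17 by 1.27 (SE 0.22, adjusted p = 0.00282) and Skp2 by 1.12 (SE 0.30, adjusted p = 0.0369). Asb17 was detected on 1 of 3 control and 3 of 3 mutant spermatid arrays, and Skp2 on 1 of 3 and 2 of 3, so both differences are against a group mostly at background. At an adjusted p under 0.05 but under the fold of 2, Nae1 (-0.92), Eloc (-0.91), Spop (-0.85) and the BTB gene Tnfaip1 (-0.95) were lower in mutant spermatids. The BTB gene Kctd1 (0.83) was higher. In this comparison the list medians were -0.24, -0.30, -0.29 and -0.11, in the order given, against -0.03 over all probes. Of all probes 28.4% were called between the control stages, 15.3% lower and 13.1% higher in spermatids, with a median of -0.05. Between the mutant stages 16.6% were lower and 14.9% higher, with a median of -0.03. The lists take the brightest probe of each gene, unlike these shares of all probes. The share of the lists called was therefore read as a description.

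The largest dependence on processing was on the background. Without background correction 16 of the 35 calls between control stages remained and 16 of the 36 between mutant stages, and with a normexp offset of 50 there were 22 and 24, with all of these among the main calls. No called difference changed sign under any alternative run. The calls kept in controls without correction included Klhl10, Klhl11, Klhl12, Klhl41, Kbtbd4, Kbtbd6, Kbtbd7, Klhl17, the Cul3 fall and the fall of Cul4a on ILMN_2956895. The 2 Klhl32 calls between genotypes in spermatids were kept as well, while the 3 Kbtbd7 genotype differences dropped to 0.50 to 0.66, under the fold of 2.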

How the data were processed

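Total RNA of sorted cells was hybridized to Illumina MouseWG-6 v2.0 BeadChips. The authors deposited the linear bead intensity of each probe, exported from Illumina software (GenomeStudio 2011.1 and limma 3.12.1 are named in the submitters' processing notes). They also deposited a detection p-value per probe and array, and log2 values after normexp and quantile normalization. BeadChip positions are not given in the sources used here. The intensities of the 12 arrays were normalized again (normexp with detection p-values, offset 16, quantile, log2; limma 3.58.1, R 4.3.3) and lay within 0.0244 of the deposited log2 values. Probes with detection p under 0.05 on at least 1 of 11 arrays (28751) were fitted with array weights in a model of the 4 groups, so log2 differences are weighted, and the spread rested on 13.2 degrees of freedom. Probe names came from the platform table, and all 76 members matched RefSeq. All members may be named, with per-array values for those called, Klhl10 and the cullins. Members and lists were chosen with earlier results of these data known.

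Spermatids and spermatocytes with the same number came from 1 mouse per the labels, and their deviations correlated by -0.0423 to 0.227, so the main model had no mouse block. Background, scaling, filter, weights, block and single arrays were varied. Replicates were separate mice, whose small number sets the precision. The fit was tested on simulated data.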

Additional observations from a re-analysis of the deposited data

Results flagged for a closer look

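On the spermatocyte array of mouse 4, which entered no comparison, 2 member probes were detected that no control spermatocyte array detected. The Klhl42 probe ILMN_2574388 read 4.74 there (detection p-value of the Illumina software 0.0438), against 4.41 on the highest control spermatocyte array. The Klhl6 probe ILMN_2840514 read 4.85 (detection p-value 0.0171), against 4.74. Both values are near the floor of detection.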

How the results depend on the processing

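Of 907 values of called members under alternatives other than leaving out an array, 829 stayed called, 78 fell below the threshold and 0 reversed; of 836 with 1 array left out, 806 stayed called, 30 did not and 0 reversed. Without background correction the called members numbered 16 between control stages, 16 between mutant stages and 2 between spermatids of the genotypes, and with an offset of 50 they numbered 22, 24 and 2, as both settings compress differences of dim probes. Between spermatocytes of the genotypes there was 1 call without array weights and 4 with the array of mouse 4. A fold of 1.5 with an adjusted p under 0.1 gave 8 calls between spermatids and 1 between spermatocytes. Leaving out each array gave 32 to 36 calls between control stages, 30 to 39 between mutant stages, 2 to 6 between spermatids, 0 to 3 between spermatocytes and 0 for the difference between genotype effects; a lone array was assumed to vary like the other groups. With mouse as a random replicate block (correlation 0.0912) the counts were 35, 36, 5 and 0 and no call changed, and with mouse as a fixed block 34 and 36 between stages. That block lost Klhl21 between control stages (-0.95) and Cul4a ILMN_2735174 between mutant stages (-0.94) and gained Cul1 ILMN_1222157 between mutant stages (1.17, adjusted p = 0.00661). Median scaling moved the median of all probes from -0.01 to -0.16 between spermatocytes of the genotypes and from -0.02 to 0.17 for the difference of effects, and changed no count of calls there. Some members near background were called between the stages, and the part of low signal in the calls that were missing was not tested.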
